A study of Mus musculus with 24 samples.

Results

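The CHD and ISWI chromatin remodellers were followed through 4 days of mESC differentiation with and without depletion of the BAF complex. The 10 genes were chosen by name from the 25965 entries of the deposited expression table: *Chd1*, *Chd2*, *Chd3*, *Chd4*, *Chd7*, *Chd8*, *Chd9*, the ISWI ATPases *Smarca1* and *Smarca5*, and *Mbd3*. Each name matched a single entry. All libraries came from male C57/Bl6 mouse embryonic stem cells (mESCs), expanded in 2i medium, which blocks differentiation, and weaned into the serum medium DME HiHi. On day 2 of differentiation the cells received a retroviral short hairpin RNA, and puromycin was added on day 3 in every group. The Nons group carried the nonsilencing hairpin, the *Smarcc1* knockdown group hairpin Smarcc1.6 or Smarcc1.7, and the *Smarca4* knockdown group hairpin Smarca4.4 or Smarca4.6. RNA was sequenced on days 4, 5, 6 and 7, with 1 library per hairpin and day, which gave 4 Nons, 8 *Smarcc1* knockdown and 8 *Smarca4* knockdown libraries. A second Nons series was not analysed here, so every contrast with Nons rested on a single Nons culture series. A genotype label names the *Smarca4* libraries as a Smarcc knockdown, and the sample titles were followed.

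Chromatin remodellers use ATP to slide, space, evict or exchange nucleosomes, and they fall into families by their ATPase. BAF is the mammalian SWI/SNF complex, with Smarca4 (BRG1) as an ATPase and Smarcc1 (BAF155) as a core subunit. CHD proteins carry tandem chromodomains beside the ATPase, and Chd3 and Chd4 are alternative motors of NuRD, which joins remodelling to histone deacetylation. Mbd3 is a NuRD scaffold that is needed for mESCs to leave self-renewal. ISWI enzymes space nucleosomes into regular arrays, with Smarca5 (SNF2H) as the widely used ATPase and Smarca1 (SNF2L) as its paralog. Chd1 binds methylated histone H3 at active genes and is needed for the open chromatin of mESCs, and Chd2 is its closest relative. Chd7 and Chd8 belong with Chd9 to a further subfamily, in which Chd7 is the gene of CHARGE syndrome and Chd8 is linked to autism.

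The guide strands define the groups, so they are shown 5′ to 3′ with the seed (bases 2 to 8 from the 5′ end) in capitals.
Smarcc1.6: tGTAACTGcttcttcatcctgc
Smarcc1.7: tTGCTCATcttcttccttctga
Smarca4.4: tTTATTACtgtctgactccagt
Smarca4.6: tTGCATAAtagtgttcatcagt
The 4 guides have different seeds. The complement of the 21 bases after the first was found in transcripts of a single gene for each guide, the intended target, and in 0 of the 10 remodeller genes. On mm10 chromosome 9, plus strand, the *Smarcc1* sites lie in coding exons at 110177472 to 110177492 (Smarcc1.6) and 110173911 to 110173931 (Smarcc1.7). The Smarca4.6 site lies in a coding exon of *Smarca4* at 21670504 to 21670524, and the Smarca4.4 site in its untranslated region after the coding sequence, at 21703327 to 21703347. *Smarcc1* was below same-day Nons in 8 of 8 of its knockdown libraries, at 23.7% to 60.1% of Nons, and *Smarca4* in 8 of 8, at 21.6% to 55.3%.

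Values are log2 rpm or rpm (reads of a gene relative to all reads of the library), as quantified by the authors. Library totals ranged from 6829596 reads (Smarca4.4 on day 5) to 27472885, with the other libraries at 15717152 or more. The remodellers had between 71 reads (*Chd3*) and 21711 reads (*Chd4*) in a library, and all 10 passed the filter on low values. Of the 8 pluripotent cell markers, summed levels fell from 2886 to 3414 rpm on day 4 to 450 to 1083 rpm on day 7, as ranges over libraries. A set of 5 libraries stood apart along transcript length. For each library a length index was taken as the median deviation of 1587 genes with transcripts over 6 kb minus that of 1862 genes with transcripts up to 1.5 kb, on the log2 scale and without the remodellers. It lay between -1.08 and -0.63 in Nons on day 6, Smarcc1.6 on days 5 and 6, and Smarca4.6 on days 5 and 6, and between -0.24 and 0.76 in the other 15. The results are therefore given beside those with an adjustment for transcript length and those without these 5 libraries and without day 6, whose only Nons library is among them. In bulk RNA, fewer cells that express a gene and less RNA per cell cannot be told apart.

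On day 4, *Chd4* was the most abundant remodeller per kb of exon, at 124 ± 19.6 rpm per kb (mean ± SD over the 5 libraries of the day, all groups together). *Mbd3* followed at 85.5 ± 4.09 and *Smarca5* at 57.6 ± 1.56 rpm per kb. *Chd8* (26.8 ± 0.981) and *Chd1* (23.9 ± 1.44) overlapped in range, and every other pair of neighbours in the order was separate. *Chd9* stood at 15.2 ± 1.10, *Chd2* at 9.73 ± 0.986 and *Chd7* at 4.76 ± 0.610 rpm per kb. The 2 lowest were the paralogs *Smarca1*, at 1.66 ± 0.213, and *Chd3*, at 0.986 ± 0.0794 rpm per kb. By day 7 the ends of the order were the same, with *Chd4* at 60.1 ± 5.85 and *Chd3* at 2.17 ± 0.606 rpm per kb. In the middle, *Mbd3* and *Smarca5* overlapped, and each neighbour from *Chd8* down to *Chd3* overlapped the next.

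**Figure D1:**
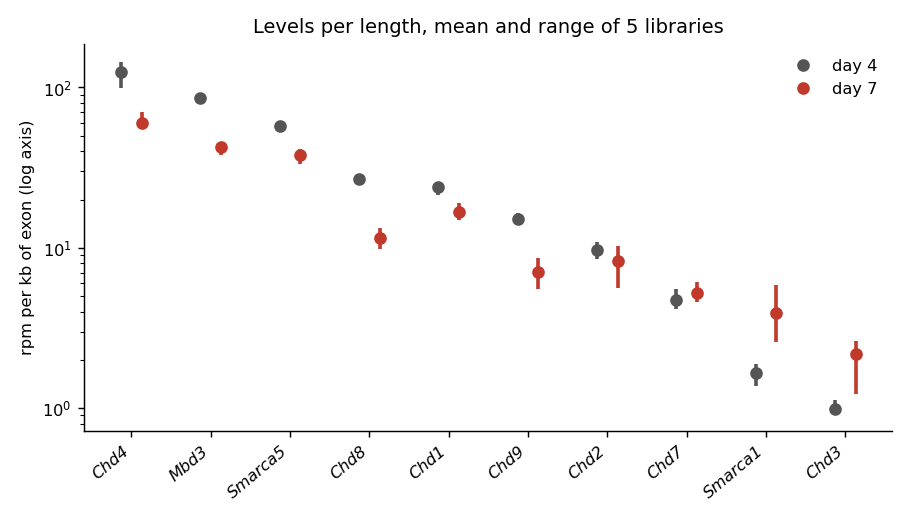
Level of each remodeller per kb of merged exons (rpm per kb, log axis) on day 4 (grey) and day 7 (red), ordered by the day 4 mean. Points are means and vertical lines ranges over the 5 libraries of the day; 6 genes have day 7 ranges wholly below day 4, and *Smarca1* and *Chd3* wholly above.

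Between day 4 and day 7, 7 of the 10 remodellers changed, 5 downwards and 2 upwards. The downward group held the NuRD motor *Chd4*, the NuRD scaffold *Mbd3*, *Chd8*, *Chd9* and *Smarca5*, and the upward group held the low paralogs *Chd3* and *Smarca1*. This comparison changed 64.5% of all 13296 genes tested (limma, Benjamini-Hochberg adjusted *p* under 0.05), 3826 downwards and 4749 upwards. Counted in either direction, 7 of 10 is near this background share. The directions differ, with more falls than rises among the remodellers. The median change was -0.58 over the 10 remodellers and 0.08 over all genes (log2). With each library centred on its median gene, all changes move down by 0.18.

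**Figure D2:**
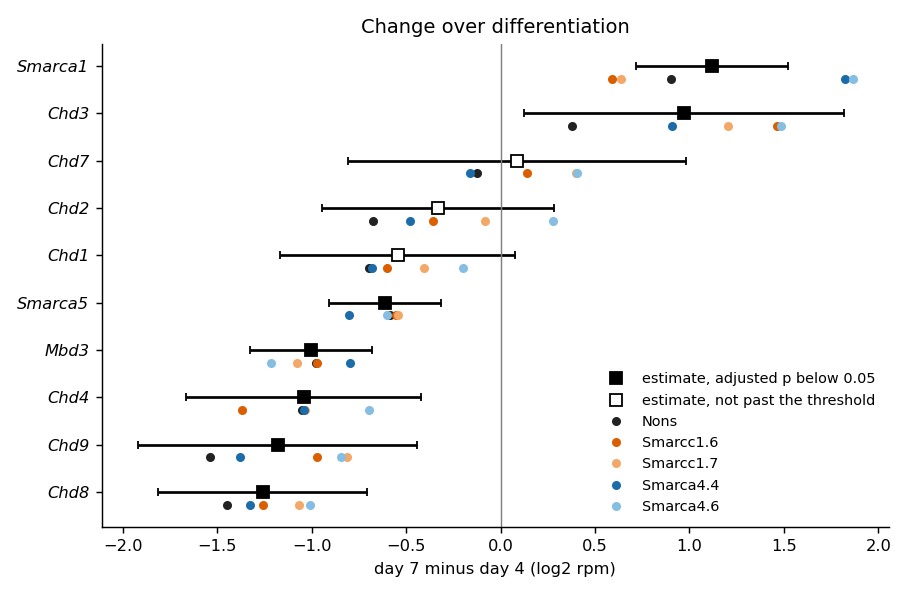
Difference between day 7 and day 4 in log2 rpm for each remodeller. Squares are the estimates with 95% intervals over the 3 groups weighted equally, filled where the adjusted *p* was below 0.05, and the points are the 5 culture series, which were all below 0 for 6 genes and all above 0 for *Chd3* and *Smarca1*.

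*Chd4*, the main NuRD motor by level (chromosome 6, 125095981 to 125130591, plus strand), had 790, 975, 963, 780 and 667 rpm on day 4 in Nons, Smarcc1.6, Smarcc1.7, Smarca4.4 and Smarca4.6. On day 7 the same series had 381, 378, 469, 379 and 413 rpm. The days did not overlap, and *Chd4* was lower on day 7 in 5 of 5 series. The log2 change was -1.04 (SE 0.287, adjusted *p* = 0.00637 from limma). The fall was present by day 5 (394, 275, 575, 503 and 319 rpm). On day 6 the level was 216 rpm in Nons, 195 in Smarcc1.6 and 177 in Smarca4.6, all of them libraries low in long transcripts, and 402 and 400 in Smarcc1.7 and Smarca4.4. The last 2 series therefore fell from day 4 to day 6 and stayed near that level, whereas the 3 others passed through a minimum.

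*Mbd3* (chromosome 10, 80392539 to 80399550, minus strand) has the shortest transcript of the 10 genes, 1.66 kb. It had 165, 167, 155, 149 and 164 rpm on day 4, 115, 118, 136, 138 and 215 rpm on day 5, 85.8, 92.6, 93.8, 105 and 79.3 rpm on day 6, and 83.8, 85.0, 73.2, 85.9 and 70.8 rpm on day 7, in the series order used for *Chd4*. Every day 6 and day 7 library lay below every library of days 4 and 5. The only library of day 5 above its own day 4 level was Smarca4.6, the library with the lowest length index. The log2 change from day 4 to day 7 was -1.002 (SE 0.149, adjusted *p* = 6.46e-05), with the *Mbd3* transcript lower in 5 of 5 series.

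*Chd3* (chromosome 11, 69343273 to 69369406, minus strand), the other NuRD motor, went the other way from a low level. On day 4 it had 6.88, 6.75, 8.11, 7.30 and 6.76 rpm, and on day 7 it had 8.95, 18.6, 18.7, 13.7 and 18.9 rpm. All 5 series were higher on day 7, Nons by the least. The log2 change was 0.97 (SE 0.391, adjusted *p* = 0.0442). The call was lost without Smarca4.4 (adjusted *p* = 0.0842) or without Smarca4.6 (adjusted *p* = 0.143), without the library of Smarca4.4 on day 5 (0.0569), and also after centring on the median gene (0.0514) and quantile normalization (0.133). It passed with the adjustment for transcript length (log2 change 0.84, adjusted *p* = 0.00542). *Chd4* exceeded *Chd3* per kb by 107 to 156 times on day 4 and by 21.9 to 46.0 times on day 7, as ranges over the 5 libraries of each day.

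*Chd8* (chromosome 14, 52198151 to 52237791, minus strand) had 229, 231, 235, 230 and 214 rpm on day 4 and 92.3, 60.3, 115, 112 and 66.2 rpm on day 5. On day 7 it had 83.8, 96.6, 112, 91.8 and 106 rpm. All libraries of days 5 to 7 lay below all libraries of day 4. The log2 change to day 7 was -1.26 (SE 0.255, adjusted *p* = 0.000793).

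*Chd9* (chromosome 8, 90828835 to 91054508, plus strand) had 192, 174, 184, 199 and 166 rpm on day 4 and 66.3, 88.8, 104, 76.5 and 92.6 rpm on day 7. Its log2 change was -1.18 (SE 0.341, adjusted *p* = 0.00848), in 5 of 5 series. On day 6, when *Chd8* was at 103 and 97.1 rpm in Smarcc1.7 and Smarca4.4, *Chd9* was at 191 and 158 rpm. The difference between days 6 and 7 passed the test with the adjustment for transcript length (log2 change -0.78, adjusted *p* = 0.000442) and not without it (-0.33, adjusted *p* = 0.464).

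*Smarca5* (chromosome 8, 80698507 to 80739497, minus strand) had 343, 343, 366, 354 and 356 rpm on day 4 and 229, 234, 251, 203 and 235 rpm on day 7. The log2 change was -0.61 (SE 0.137, adjusted *p* = 0.00169), lower in 5 of 5 series. Most of it fell between day 5 (408, 333, 310, 347 and 212 rpm) and day 6 (213, 235, 258, 215 and 215 rpm). Near-identical copies in other annotated genes (at least 97% identity), among them *Gm13034* and *Gm13135*, cover 51.6% of its transcript, so its level is uncertain. How their shared reads were counted is not given in the sources used here. Sequence shared with other annotated genes makes up 7.85% of the *Chd8* transcript, 6.98% of *Chd2* and 0.933% of *Chd9*, and none was found for the other 6 genes. For *Chd2* the sharing gene is its neighbour *Chaserr* (*1810026B05Rik*).

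*Smarca1* (chromosome X, 47809368 to 47892974, minus strand), the ISWI paralog, rose. It had 8.15, 11.2, 10.9, 9.22 and 9.50 rpm on day 4 and 15.2, 16.8, 17.0, 32.6 and 34.6 rpm on day 7. The 2 *Smarca4* knockdown libraries stood above the other 3 on day 7. Every day 7 library lay above every day 4 library, and the log2 change was 1.12 (SE 0.185, adjusted *p* = 0.000162). *Smarca5* exceeded *Smarca1* per kb by 29.6 to 40.6 times on day 4 and by 6.00 to 14.5 times on day 7.

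The other 3 genes did not pass the test. *Chd1* (chromosome 17, 15704967 to 15772610, plus strand) had 202, 207, 212, 205 and 181 rpm on day 4 and 125, 136, 160, 128 and 157 rpm on day 7. Its days did not overlap, yet the estimate was -0.54 with a 95% interval from -1.17 to 0.08 (adjusted *p* = 0.114), with the spread estimated from the hairpin pairs of all days. After centring on the median gene it passed (-0.72, adjusted *p* = 0.0206). *Chd2* (chromosome 7, 73426691 to 73541746, minus strand) had 81.5, 91.1, 98.7, 93.6 and 76.9 rpm on day 4 and 51.1, 71.0, 93.4, 67.1 and 93.3 rpm on day 7, an estimate of -0.33 (95% interval -0.95 to 0.28). *Chd7* (chromosome 4, 8690406 to 8867659, plus strand) had 57.0, 43.3, 47.9, 54.8 and 43.5 rpm on day 4 and 52.3, 47.7, 63.1, 48.9 and 57.7 rpm on day 7. Its estimate was 0.09, and the interval of -0.80 to 0.98 leaves changes of either sign possible.

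**Figure D3:**
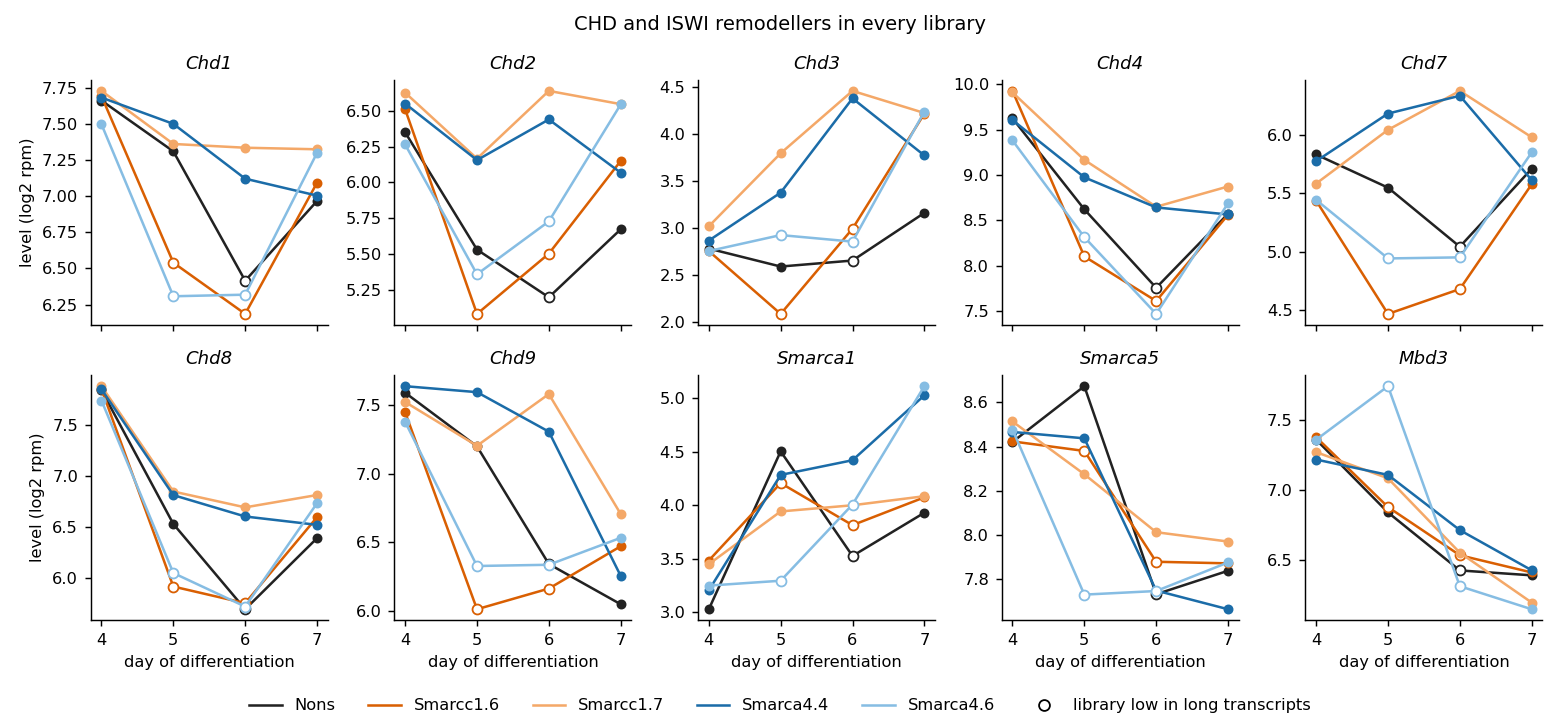
Level of each remodeller (log2 rpm) by day of differentiation in the 5 culture series, coloured by hairpin, with a separate vertical scale for each gene. Open circles mark the 5 libraries low in long transcripts; on both days with such libraries, *Chd1*, *Chd2*, *Chd4*, *Chd7*, *Chd8* and *Chd9* lie lower there than in the other libraries of the day, and the ranges overlap on 1 or both days for the other 4 genes.

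With the adjustment for transcript length, 9 of 10 remodellers changed between days 4 and 7, 7 downwards and 2 upwards. Of all genes 71.7% did, 4382 downwards and 4199 upwards. *Chd1* (-0.64, adjusted *p* = 0.000214) and *Chd2* (-0.38, adjusted *p* = 0.00638) then passed, and *Chd7* did not (0.09, adjusted *p* = 0.692). Without the 5 libraries and day 6 the same 9 genes passed, against 82.7% of genes, 5054 downwards and 5945 upwards. This fit has 4 residual degrees of freedom, from the hairpin pairs of days 4 and 7, and its standard errors are smaller (0.0800 in place of 0.287 for *Chd4*).

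From day 4 to day 5, 4 of 10 remodellers passed, against 38.7% of genes: *Chd8* (-1.39, adjusted *p* = 0.00123), *Chd4* (-1.05, adjusted *p* = 0.0130) and *Chd2* (-0.80, adjusted *p* = 0.0406) fell, and *Smarca1* rose (0.88, adjusted *p* = 0.00284). The *Chd4* call was lost without Smarca4.6 (adjusted *p* = 0.0631). The *Chd2* call was lost without Smarcc1.6 (adjusted *p* = 0.0770), Smarca4.4 (0.0838) or Smarca4.6 (0.155), without day 7 (0.0665) and under quantile normalization (0.0683). *Chd1* passed without the library of Smarca4.4 on day 5 (-0.80, adjusted *p* = 0.0344). With the adjustment for transcript length 5 passed, against 45% of genes, and without the low libraries 7, against 61.5%. *Chd4*, *Chd8*, *Chd2* and *Smarca1* were among them in both, at -0.77, -1.03, -0.42 and 1.05 with the adjustment.

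From day 5 to day 6, 2 of 10 passed, against 32.3% of genes: *Mbd3* fell by 0.59 (adjusted *p* = 0.00956) and *Smarca5* by 0.55 (adjusted *p* = 0.00892). The *Smarca5* call was lost without Smarcc1.6 (adjusted *p* = 0.0625), and the *Mbd3* call without Smarcc1.7 (0.0545) or Smarca4.6 (0.0583). *Chd4* was at -0.65 (adjusted *p* = 0.101), and its adjusted *p* was 0.0450 under a replicate block for culture series. With the adjustment for transcript length *Chd4* (-0.67), *Chd8* (-0.42) and *Chd1* (-0.43) passed too, 5 in all against 42.5% of genes. From day 6 to day 7, 0 of 10 passed in limma, against 27.5% of genes, and with the adjustment *Chd9* alone did, against 31.2%. At an unadjusted *p* under 0.05 in limma without the adjustment 2 of 10 passed, against 5708 of 13296 genes. *Smarca1* was higher on day 7 than on day 6 in 5 of 5 series (log2 difference 0.48, adjusted *p* = 0.0698). Its adjusted *p* was 0.0390 with a replicate block for culture series and 0.0171 without the smallest library, Smarca4.4 on day 5. The difference was 0.17 when adjusted for transcript length (adjusted *p* = 0.444). *Chd4* was at 0.66 (adjusted *p* = 0.0988), with an adjusted *p* of 0.0447 under the block.

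In neither knockdown did a remodeller gene pass the test. In *Smarcc1* knockdown against Nons, 0 of 10 passed at an adjusted *p* under 0.05 in limma, against 10.6% of all genes, and 0 by limma-voom on recovered reads. At an unadjusted *p* under 0.05 in limma 0 of 10 passed too, against 3025 of 13296 genes. In *Smarca4* knockdown 0 of 10 passed in any of these, against 6.71% of genes at the adjusted threshold and 2585 genes at the unadjusted one. The same held for the direct comparison of both knockdowns, against 4.09% of genes at the adjusted threshold and 2138 genes at the unadjusted one. The median difference from Nons was 0.11 over the remodellers and 0.06 over all genes in *Smarcc1* knockdown, and 0.13 against 0.06 in *Smarca4* knockdown. These comparisons share the Nons libraries. The intervals leave room for sizeable differences in the long genes, for example -0.84 to 0.81 for *Chd7* in *Smarcc1* knockdown, and less room in *Smarca5* (-0.27 to 0.27) and *Mbd3* (-0.26 to 0.33).

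**Figure D4:**
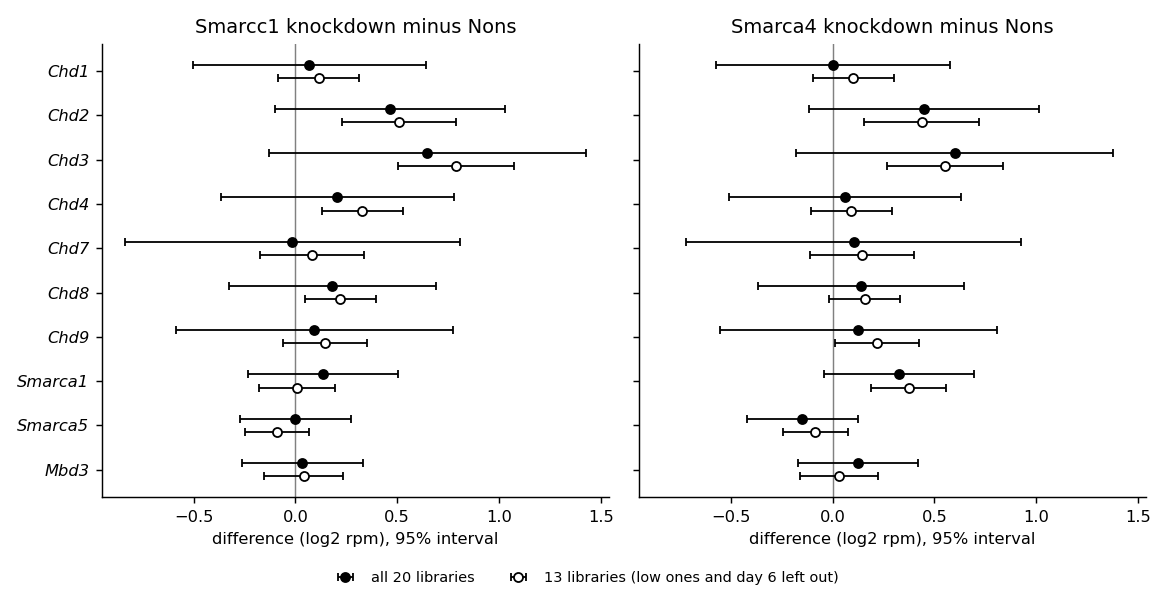
Difference of each remodeller from Nons in log2 rpm, averaged over days, for *Smarcc1* knockdown (left) and *Smarca4* knockdown (right). Filled circles use all 20 libraries and open circles the 13 that remain without the low libraries and day 6; bars are 95% intervals, and the filled ones all include 0.

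*Chd3* and *Chd2* had the largest estimates. *Chd3* was above same-day Nons in 6 of 8 *Smarcc1* and 7 of 8 *Smarca4* knockdown libraries. Its Nons level was 6.88, 6.03, 6.30 and 8.95 rpm on days 4 to 7. Smarcc1.6 had 6.75, 4.25, 7.97 and 18.6 rpm, and Smarcc1.7 had 8.11, 13.9, 22.0 and 18.7 rpm. Smarca4.4 had 7.30, 10.4, 20.8 and 13.7 rpm, and Smarca4.6 had 6.76, 7.60, 7.24 and 18.9 rpm. On day 4 the groups overlapped, and on day 7 all 4 knockdown libraries were above Nons. The average difference was 0.65 (SE 0.359, adjusted *p* = 0.319) in *Smarcc1* and 0.60 (SE 0.359, adjusted *p* = 0.398) in *Smarca4* knockdown.

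*Chd2* was above same-day Nons in 7 of 8 *Smarcc1* and 6 of 8 *Smarca4* knockdown libraries. Nons had 81.5, 46.3, 36.8 and 51.1 rpm on days 4 to 7, Smarcc1.6 had 91.1, 33.9, 45.4 and 71.0 rpm, and Smarcc1.7 had 98.7, 71.8, 99.6 and 93.4 rpm. Smarca4.4 had 93.6, 71.3, 86.8 and 67.1 rpm, and Smarca4.6 had 76.9, 41.1, 53.0 and 93.3 rpm. From day 6 on, Nons was the lowest series. The average difference was 0.46 (SE 0.261, adjusted *p* = 0.327) and 0.45 (SE 0.261, adjusted *p* = 0.378). *Chaserr*, the noncoding RNA gene beside *Chd2* that restrains it, was not analysed here.

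*Smarca1* had its highest levels in *Smarca4* knockdown on day 7. *Smarca4* knockdown had 9.22, 19.5, 21.4 and 32.6 rpm on days 4 to 7 with Smarca4.4 and 9.50, 9.81, 16.1 and 34.6 rpm with Smarca4.6. Nons had 8.15, 22.7, 11.5 and 15.2 rpm, Smarcc1.6 had 11.2, 18.5, 14.1 and 16.8 rpm, and Smarcc1.7 had 10.9, 15.4, 16.0 and 17.0 rpm. The change per day exceeded that of Nons by 0.42 in *Smarca4* knockdown (95% interval 0.09 to 0.75, unadjusted *p* = 0.0161, adjusted *p* = 0.665 from limma) and by -0.01 in *Smarcc1* knockdown (-0.34 to 0.32). In these comparisons of slopes 0 of 10 remodellers passed in limma or limma-voom, against 0.135% of genes in *Smarca4* and 0.94% in *Smarcc1* knockdown in limma. At an unadjusted *p* under 0.05 in limma 1 of 10 passed in *Smarca4* knockdown, against 692 of 13296 genes. In *Smarcc1* knockdown 0 did, against 1279 genes. The average difference from Nons in *Smarca4* knockdown was 0.33 (SE 0.170, adjusted *p* = 0.321), and it was 0.68 (adjusted *p* = 0.00978) without day 5, when Nons was the highest library and Smarca4.6 the lowest, against 7.25% of genes.

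On day 7 Nons was below all 4 knockdown libraries for 6 of the 10 remodellers, *Chd1*, *Chd2*, *Chd3*, *Chd8*, *Chd9* and *Smarca1*, and above them for 0. Of all 13296 genes, Nons lay outside the range of the others for 58.8% in either direction, below it for 4999 and above it for 2818. It also had the lowest length index of that day, 0.12, against 0.16 to 0.76. The 2 *Smarca4* knockdown libraries lay outside the range of the other 3 on day 7 for 1 remodeller, *Smarca1*, where they were higher. The same held for 25% of all genes in either direction, with 1503 higher and 1823 lower.

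Without the 5 low libraries and day 6, 4 of 10 remodellers passed in *Smarcc1* knockdown against Nons, all of them higher. Of all 13296 genes 37.7% passed in either direction, and 3438 were higher. The 4 were *Chd3* (0.79, adjusted *p* = 0.00117), *Chd2* (0.51, adjusted *p* = 0.0106), *Chd4* (0.33, adjusted *p* = 0.0157) and *Chd8* (0.22, adjusted *p* = 0.0494). In *Smarca4* knockdown 3 passed, all of them higher, against 22.9% of genes in either direction and 2274 genes higher. They were *Chd3* (0.55, adjusted *p* = 0.0123), *Chd2* (0.44, adjusted *p* = 0.0323) and *Smarca1* (0.37, adjusted *p* = 0.0106). *Smarca1* was also lower in *Smarcc1* than in *Smarca4* knockdown (-0.36, adjusted *p* = 0.0115), against 14.4% of genes in either direction and 833 lower. Its slope in *Smarca4* knockdown passed (0.37 per day, adjusted *p* = 0.0123), against 4.14% in either direction and 288 higher. The hairpin pairs left in this fit are those of days 4 and 7, and the lone day 5 libraries were taken to vary like them. With the adjustment for transcript length on all 20 libraries, 0 of 10 passed in either knockdown, against 15.6% of genes in *Smarcc1* and 11% in *Smarca4* knockdown. *Chd2* was then at 0.22 (adjusted *p* = 0.172) and 0.32 (adjusted *p* = 0.0554), and *Chd3* at 0.44 (adjusted *p* = 0.202) and 0.47 (adjusted *p* = 0.185).

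Between libraries of the same day, the levels of the CHD genes moved with the length index, and those of *Smarca5*, *Smarca1* and *Mbd3* did so less or not. *Chd1*, *Chd2*, *Chd4*, *Chd7*, *Chd8* and *Chd9* have transcripts of 6.70 to 12.01 kb. Their deviations from the day mean correlated with the length index at 0.91 to 0.97 (Pearson's *r* over the 20 libraries, which share culture series). For *Chd3* this was 0.83, for *Smarca5* 0.53, for *Smarca1* 0.33 and for *Mbd3* -0.18. On day 6, all 3 low libraries were below both other libraries for 8 of the 10 genes, and on day 5 both low libraries were below the other 3 for 6. With the adjustment, the standard deviation of *Chd8* within days fell from 0.308 to 0.0745 on the log2 scale, and that of *Chd1* from 0.345 to 0.140. That of *Smarca1* was 0.371 before and 0.375 after the adjustment, and that of *Smarca5* 0.174 and 0.217.

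**Figure D5:**
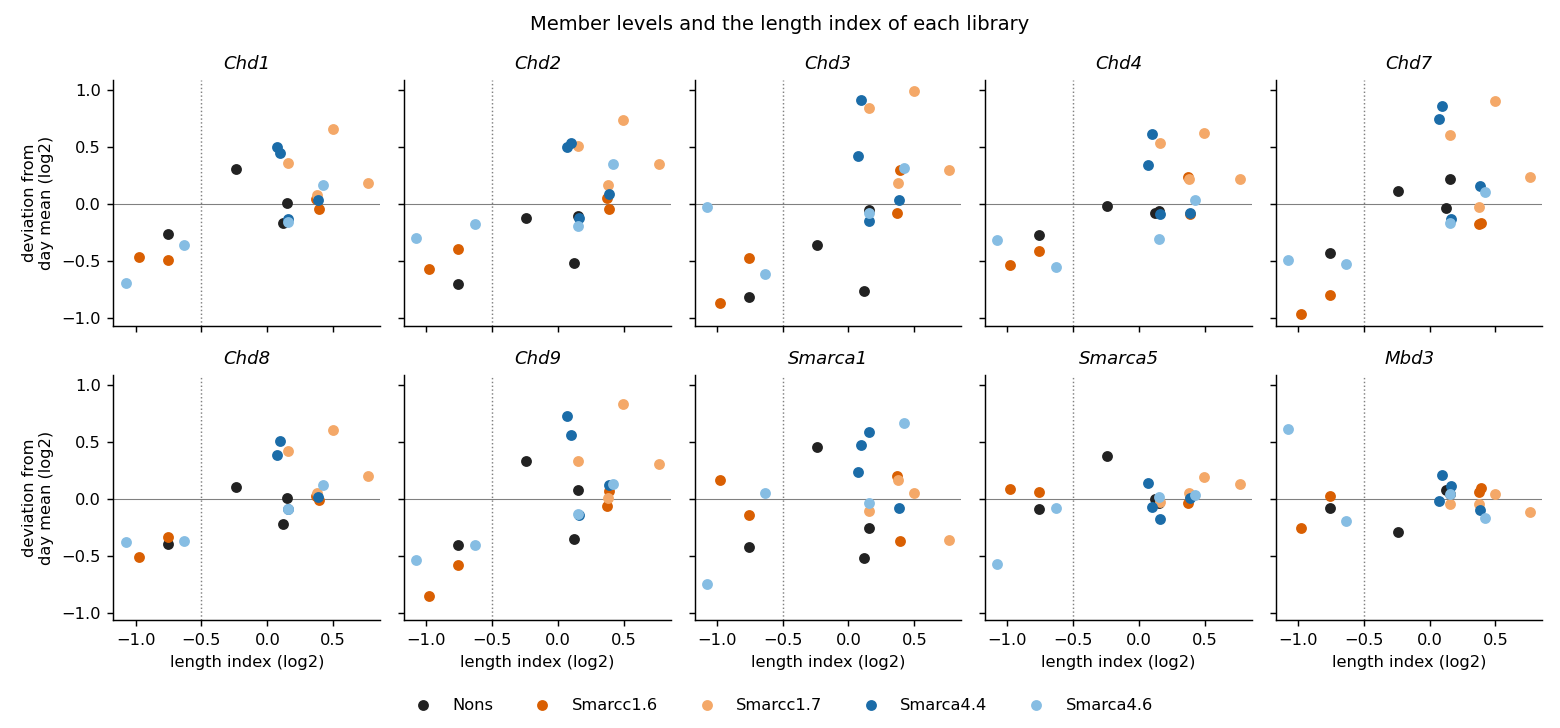
Deviation of each remodeller from the mean of its day (log2 rpm) against the length index of the library (log2), with 20 libraries per panel coloured by series. The dotted line at -0.5 separates the 5 low libraries; the long CHD genes rise with the index, and *Smarca1*, *Smarca5* and *Mbd3* follow it less.

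Over all 20 libraries the most alike pair of remodellers was *Chd4* and *Chd8* (Pearson's *r* of 0.97), followed by *Chd1* and *Chd4* (0.93). The most opposed were *Smarca1* and *Mbd3* (-0.66). Among all tested genes, the 2 with the highest *r* over the 20 libraries were named for each remodeller. They were *Bod1l* and *Ahctf1* for *Chd1* (both 0.98), *Ep300* (0.97) and *Foxk1* (0.96) for *Chd2*, *Pkd1* (0.97) and *Notch2* (0.95) for *Chd3*, and *Eif4g1* (0.99) and *Ddx46* (0.98) for *Chd4*. They were *Zcchc2* (0.95) and *Tubgcp6* (0.92) for *Chd7*, *Ncor1* and *Etv6* (both 0.98) for *Chd8*, and *Jmjd1c* (0.94) and *Prkdc* (0.93) for *Chd9*. *Smarca5* was most like *Dhx15* (0.96) and *Srbd1* (0.95), *Mbd3* most like *Tomm40* and *Utp3* (both 0.96), and *Smarca1* had the weakest likeness, to *Gnl2* (0.88) and *Nrk* (0.84). The genes named for the CHD genes have longest transcripts of 5.64 to 14.2 kb, and those named for *Mbd3* of 1.65 and 1.63 kb. These correlations span all days and the low libraries, so changes over days and the length index enter them. The part of each was not tested.

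Partner genes of these enzymes were counted in the same comparisons. Of 13 NuRD partners, 3 rose and 7 fell between days 4 and 7 (median -0.33), and of 9 ISWI partners 1 rose and 5 fell (median -0.47). Of the 4 partners of the ChAHP complex, which joins Chd4 to Adnp and heterochromatin proteins, 2 fell and 0 rose (median -0.72). Of *Chd5*, *Chd6* and *Chd1l*, 1 fell and 0 rose, and of 13 other remodeller ATPases 1 rose and 7 fell (median -0.60). In all, 27 of the 42 partner genes passed, 5 upwards and 22 downwards. Counted in either direction, this share is near the 64.5% of all genes. The directions differ, since 4749 of all 13296 genes rose and 3826 fell. With the adjustment for transcript length 4 rose and 28 fell, against 71.7% of genes in either direction (4199 rose and 4382 fell). Without the low libraries and day 6, 8 rose and 30 fell, against 82.7% (5945 rose and 5054 fell).

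The largest partner changes were falls in *Hells*, which supports DNA methylation, from 996 to 1105 rpm on day 4 to 189 to 240 rpm on day 7, as ranges over 5 libraries (log2 change -2.35, adjusted *p* = 6.47e-08). *Smarcad1*, which acts behind replication forks, fell from 279.7 to 374 rpm to 70.0 to 78.0 rpm (-2.14, adjusted *p* = 7.50e-07), and *Ino80*, the ATPase of the INO80 complex, fell too (-1.93, adjusted *p* = 1.53e-05). *Cbx1*, a heterochromatin protein of ChAHP, fell by 1.47 (adjusted *p* = 9.01e-08), and *Sall4*, a pluripotency factor that binds NuRD, by 1.38 (adjusted *p* = 0.000553). *Mta1*, a NuRD subunit, rose from 45.0 to 55.4 rpm to 131 to 163 rpm (1.48, adjusted *p* = 0.000824). In the knockdowns, 0 of the 42 partners passed in limma against Nons or between the knockdowns, against 10.6% of all genes in *Smarcc1* knockdown, 6.71% in *Smarca4* knockdown and 4.09% between them. At an unadjusted *p* under 0.05 in limma these were 6 of 42 in *Smarcc1* knockdown, 4 in *Smarca4* knockdown and 2 between them. Of all 13296 genes tested, 3025, 2585 and 2138 passed at that threshold. Without the low libraries and day 6, 23 of 42 passed in *Smarcc1* knockdown, 20 of them higher, against 37.7% of genes, and 11 in *Smarca4* knockdown, 9 of them higher, against 22.9%. With the adjustment for transcript length these were 5, with 3 higher, against 15.6% of genes, and 1, which was lower, against 11%. 

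Markers of cell state moved over the same days. Between days 4 and 7, 7 of 8 pluripotent cell markers fell and 1 rose, and 2 of 4 formative and primed epiblast markers fell. The 4 endoderm markers summed to 1.65 to 3.13 rpm on day 4 and 2.72 to 10.02 rpm on day 7, the 3 neural markers to 26.0 to 36.5 and 84.9 to 125 rpm, and the 5 fibroblast or feeder markers to 6.36 to 12.01 and 26.4 to 119 rpm. Taken singly in limma, 1 of the 3 neural markers rose and 0 fell, with a median log2 change of -0.17. The 1 endoderm marker that passed the filter rose. Of 4 fibroblast or feeder markers that passed it, 2 rose and 1 fell. Between these days 64.5% of all genes changed. The 3 mesendoderm markers summed to between 4.74 and 13.5 rpm on both days, and the 3 blood markers summed to at most 0.168 rpm, with *Hbb-y* without reads in 19 of 20 libraries. In *Smarcc1* knockdown 6 of 8 pluripotent cell markers were higher than in Nons, against 10.6% of all genes changed, and in *Smarca4* knockdown 4 of 8, against 6.71%. On day 7 their summed level was 742 to 1083 rpm in *Smarcc1* knockdown and 450 to 493 rpm in *Smarca4* knockdown, on either side of the 630 rpm of Nons. In both knockdowns 2 of the 4 formative and primed epiblast markers, *Fgf5* and *Otx2*, were lower than in Nons. The 4 summed to 1606 rpm in Nons on day 4, 1151 to 1304 rpm in *Smarcc1* knockdown and 1093 to 1203 rpm in *Smarca4* knockdown. On day 7 the sum was higher in the knockdowns, at 375 to 417 and 377 to 435 rpm, against 268 rpm in Nons. The part of these markers in the levels of the remodellers was not tested.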

How the data were processed

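RNA-seq of 20 libraries of differentiating male mESCs was analysed. Per the labels and the paper, reads were aligned to mm10 (tophat or HISAT2), and the authors deposited log2 rpm values per gene from SeqMonk. The annotation release and use of strand are not given in the sources used here, so *Chd3* and *Chd9*, which overlap the antisense entries *Gm17305* and *Gm6658*, are uncertain, though these had at most 1.05 rpm. Whole reads were recovered by taking the floor value as 0.9 of 1 read: 100% of values below 1000 reads came out whole within 0.02 reads.

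limma 3.58.1 in R 4.3.3 (trend) was fitted to the 13296 genes whose average log2 rpm reached 0, with a mean for each of 12 combinations of group and day and 8 residual degrees of freedom from hairpin pairs. No source says that the hairpin cultures were started separately, so *p*-values measure the spread between these libraries. Gene lengths came from GENCODE M21 (GRCm38), with a length for 90.0% of tested genes. The length adjustment subtracts a lowess trend on transcript length in each library. The fit was run on simulated reads with independent noise for each gene and library. These carried no shift along transcript length and no correlation within a culture series, so the run cannot speak to either. All 10 genes were named, with up to 6 partner genes per comparison by largest change past the threshold, and the 2 genes most correlated with each. Members and lists were chosen with earlier results of these data known. The alternatives tried were other filters, pseudocounts, scalings, limma-voom, models of day, the culture series as a block, and leaving out hairpins, libraries or days.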

Additional observations from a re-analysis of the deposited data

How the results depend on the processing

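Each remodeller was refitted under up to 20 alternatives, 1700 values in all. Of these, 1651 kept their side of the threshold, 34 passed it newly, 15 no longer passed it and 0 reversed a call. Leaving out each hairpin in turn, the count of remodellers changed was 6 to 7 for day 7 against day 4, 2 to 4 for day 5 against day 4, 1 to 2 for day 6 against day 5 and 0 to 1 for day 7 against day 6, and 0 in the comparisons with Nons, between knockdowns and of slopes. For day 7 against day 6 the count was 1 with an additive model, 2 with a replicate block for culture series, 1 without the library of Smarca4.4 on day 5, 1 without day 5 and 1 with the adjustment for transcript length, against 0. For day 6 against day 5 the adjustment gave 5 against 2. Without day 5, *Smarca4* knockdown changed 1 against 0. Without the libraries low in long transcripts, an alternative chosen like the adjustment after seeing the data, the counts were 4 in *Smarcc1* knockdown, 3 in *Smarca4* knockdown, 1 between knockdowns, 1 for the slope in *Smarca4* knockdown (each against 0) and 7 for day 5 against day 4 (against 4). The last fit kept 13 libraries, and the cause of its counts was not tested.

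Hairpin numbers pair no cultures. The correlation within a culture series was 0.217, and the replicate block moved the counts of all genes from 1412 to 605 in *Smarcc1* knockdown, from 892 to 258 in *Smarca4* knockdown, from 544 to 105 between knockdowns, and from 125 to 292 and 18 to 52 for the slopes of *Smarcc1* and *Smarca4* knockdown. A minimum mean of 10 rpm gave 579, 324, 241, 24 and 4 genes in these, and 3420 in place of 5147 for day 5 against day 4. Leaving out hairpins, libraries or days, with the alternatives above, the counts ranged from 379 (without day 7) to 5008 in *Smarcc1* knockdown, from 132 (without day 7) to 3045 in *Smarca4* knockdown, from 49 (without Smarcc1.6) to 1909 between knockdowns, from 3179 (without Smarca4.6) to 8171 for day 5 against day 4, and from 0 to 1492 and 0 to 551 for the slopes, with the highest always without the low libraries. For day 7 against day 6 it was 1061 without Smarca4.6, in place of 3656. The adjustment for transcript length gave 1004 between knockdowns. The share of higher calls in *Smarcc1* knockdown was 53.7% under quantile normalization in place of 71.0%, and in *Smarca4* knockdown 52.9% in place of 70.7% (60.5% after centring). For day 7 against day 6 centring gave 38.2% and quantile normalization 44.3% in place of 61.5%. The single Nons series and the 5 low libraries limit every contrast with Nons, and counting error weighs most on *Chd3*, with 71 reads at the lowest.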
